A study of Mus musculus with 4 samples.

Results

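Genes that make, bind and break down retinoic acid were examined in basal and luminal cells of the developing mouse prostate. The 9 genes, taken by name, were Stra6, Aldh1a1, Aldh1a2, Aldh1a3, Crabp2, Rara, Rarb, Rarg and Cyp26b1, among 49671 genes in the deposited table. All 9 passed the filter on low values, which kept 18737 genes, but Cyp26b1 passed only through its basal libraries and Crabp2 only through its luminal libraries. A gene was kept when both libraries of at least 1 group were at 10 or more and averaged 20 or more.

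Ventral prostate tips of untreated CD-1 mice, aged 10 to 13 days after birth by the sample labels, were dissociated and sorted by FACS. The methods call the mice males of a mixed background, give a narrower age range than the labels, and name no engineered allele for these samples. Basal cells were gated as EpCAM high and CD49f high and luminal cells as EpCAM high and CD49f low, after CD45, CD31 and CD140a positive cells had been gated out. Each cell type has 2 RNA-seq libraries, numbered by the labels and named here basal 1, basal 3, luminal 3 and luminal 2, the order in which sets of 4 values are given. Lobes of many mice were used and the animals behind each library are not named, so p-values measure only the spread between these samples, which may be technical. The comparison shows how the retinoid genes differ between the multipotent basal cells of the tip and the luminal cells that arise from them.

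Vitamin A travels in the blood as retinol, which cells take up and oxidize first to retinaldehyde and then, by ALDH1A enzymes, to retinoic acid. Retinoic acid binds the nuclear receptors RARα, RARβ and RARγ, which pair with RXR proteins on DNA and switch target genes on, and CYP26 enzymes then degrade it. In the prostate, as in other glands, retinoids are known for their part in bud formation and in epithelial differentiation, and vitamin A deficiency turns the lining squamous.

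The sorted cells were checked against their markers. All 8 basal markers, among them Krt5, Krt14 and Itga6, the gene of the CD49f used for gating, were past 2-fold in the basal direction, and Krt5 was at 18481 and 15824 in basal 1 and basal 3, 77 in luminal 3 and 93 in luminal 2. Of 11 luminal markers, 6 were past 2-fold in the luminal direction, and Krt8 was at 3012 and 4287 in the basal libraries and at 13302 and 8320 in luminal 3 and luminal 2. All 11 markers of stroma and fibroblasts were above 0 in every library, although cells positive for CD140a, the product of Pdgfra, had been gated out. Their sum was 109591 in basal 1, 220484 in basal 3, 75765 in luminal 3 and 213123 in luminal 2, so it varied within each cell type. Of the 11, 2 were past 2-fold in the basal direction, Dcn at 45830, 47724, 5770 and 20256 (3.59-fold, adjusted p = 0.143 by limma and 0.0357 by edgeR) and Twist2 at 313, 351, 155 and 125 (2.37-fold), and their part in the genes higher in basal cells was not tested. Smooth muscle markers summed to 30687, 53240, 9984 and 61015 and endothelial markers to 1422, 1228, 542 and 1153, while neuroendocrine markers summed to 484 in luminal 3 and to at most 26 elsewhere. Markers of blood summed to 2636, 1656, 794 and 1994, most of it Cd3e, at 2173, 1462, 639 and 1807, while Ptprc, the gene of CD45, was at 150, 6, 0 and 0. Those of seminal vesicle or urothelium summed to 144, 58, 910 and 841. Of these 5 genes 3 passed the filter and edgeR called 2, beside 5.17% of all genes tested. Upk1a was at 75, 58, 581 and 499 (8.12-fold higher in luminal cells, adjusted p = 0.0688 by limma and 0.00771 by edgeR). Svs4 was at 0, 0, 174 and 62 (adjusted p = 0.0659 by limma and 0.0206 by edgeR). Svs4 passed the filter only through its luminal libraries, which fixed its direction, so nothing is read from its call. The part of these markers in the genes higher in luminal cells was not tested. The value of a single read was 6.26 and 6.50 in basal 1 and basal 3, 19.4 in luminal 3 and 31.2 in luminal 2, which gave 643267 to 3194308 recovered reads per library. Both luminal libraries were shallower than both basal libraries, and depth and cell type cannot be told apart in this design.

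**Figure D1:**
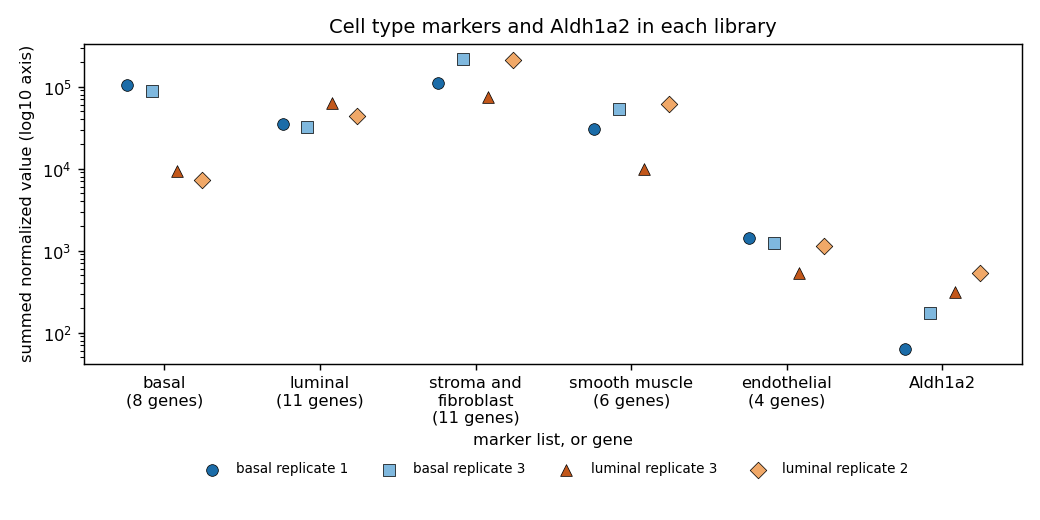
Summed normalized values of 5 marker lists and the normalized value of Aldh1a2 (log10 axis) in each of the 4 libraries, 1 point per library. Basal marker sums separate the cell types, whereas stroma and fibroblast sums are highest in basal 3 (220484) and luminal 2 (213123).

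Aldh1a1 was higher in both basal libraries and Aldh1a2 in both luminal libraries. Of the 9 genes, 3 were past 2-fold in the basal direction by the ratio of group averages (Aldh1a1, Rarb and Cyp26b1) and 3 in the luminal direction (Stra6, Aldh1a2 and Aldh1a3), where 16.3% and 18.3% of all genes tested were past the same thresholds. Both basal libraries were above both luminal libraries for 4 genes (Aldh1a1, Rarb, Rarg and Cyp26b1), against 27.3% of all genes, and both luminal libraries were above both basal libraries for 2 (Aldh1a2 and Aldh1a3), against 23.6%. Cyp26b1 passed the filter only through its basal libraries, which favoured its direction, so nothing is read from its place in the basal counts. With both groups required to pass, 2 genes were past 2-fold in the basal direction, Aldh1a1 and Rarb. By limma, run on log2(value + 1) with Benjamini-Hochberg adjustment over all genes, 0 of the 9 had an adjusted p under 0.05, where 0.694% of all genes did. At an unadjusted p under 0.05 limma gave 2 of the 9, Aldh1a1 and Aldh1a2, against 18.5% of all genes. edgeR's quasi-likelihood test on the recovered reads called 1 of the 9, Aldh1a1, against 5.17% of genes, and DESeq2 called 1, again Aldh1a1, of the 7 to which it gave an adjusted p (all but Crabp2 and Cyp26b1), against 5.73%. The median log2 fold change, luminal over basal, was 0.35 over the 9 genes and -0.10 over all genes tested. With 2 libraries against 2, an exact permutation test cannot give a two-sided p below 0.333.

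**Figure D2:**
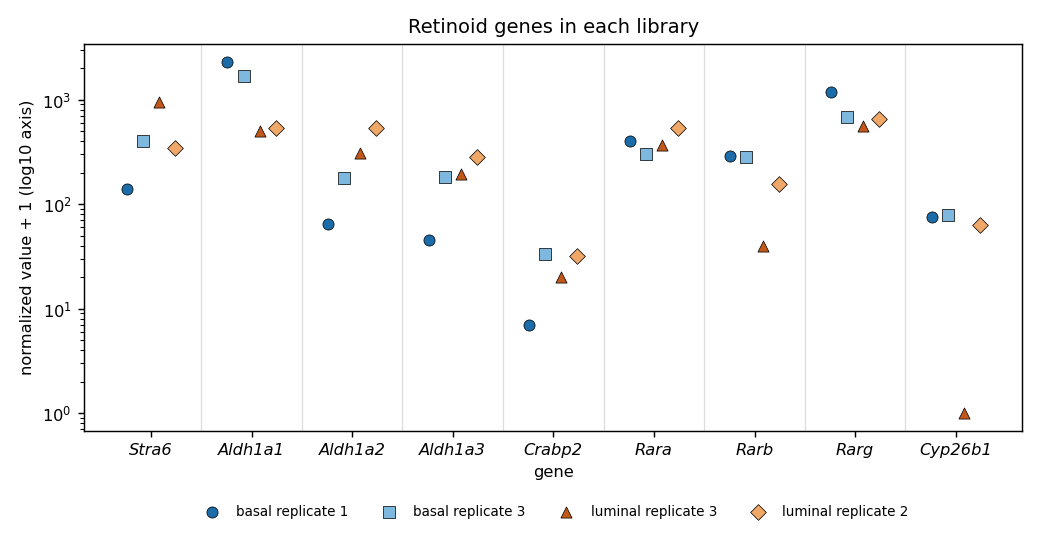
Normalized value plus 1 (log10 axis) of each of the 9 retinoid genes in the 4 libraries, 1 point per library. Aldh1a1 lies at 2311 and 1682 in basal cells and at 503 and 530 in luminal cells, Aldh1a2 has the opposite order, and Cyp26b1 is at 0 in luminal 3.

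Stra6 encodes the membrane receptor through which cells take up retinol from its carrier in the blood. Stra6 (chr9:58063788-58153996, GRCm38) was at 138 in basal 1, 403 in basal 3, 949 in luminal 3 and 343 in luminal 2. The average was 2.39-fold higher in luminal cells (270.5 ± 187 in basal and 646 ± 429 in luminal cells, SD, n = 2), yet the groups overlapped, since luminal 2 lay below basal 3. The log2 fold change of 1.27 had a standard error of 0.74 (limma adjusted p = 0.420). Without luminal 3 the ratio was 1.27 and without basal 1 it was 1.60, so the call past 2-fold rested on these libraries.

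Aldh1a1, Aldh1a2 and Aldh1a3 encode the enzymes that oxidize retinaldehyde to retinoic acid, and the makeup of this trio differed between the libraries of the 2 cell types. Aldh1a1 (chr19:20492715-20643465) was at 2311 in basal 1, 1682 in basal 3, 503 in luminal 3 and 530 in luminal 2. These values rest on 369, 259, 26 and 17 recovered reads. Every basal library lay above every luminal library, and the basal values differed more from each other than the luminal values, which rest on few reads.

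Aldh1a1 averaged 1996.5 ± 445 in basal and 516.5 ± 19.1 in luminal libraries (SD, n = 2), 3.87-fold more in basal cells. Its log2 fold change of -1.93 (standard error 0.29) had a limma adjusted p of 0.0637, with an unadjusted p of 0.000811. On recovered reads the adjusted p was 0.00697 by edgeR's quasi-likelihood test and 0.00632 by DESeq2. The call therefore depended on the test, while the ratio stayed between 3.26-fold and 4.47-fold in the basal direction when any single library was left out. As these are bulk samples, fewer cells that express a gene and less RNA per cell cannot be told apart. Aldh1a7, a neighbouring gene whose transcript matches that of Aldh1a1 at 88.9% of 2069 aligned bases, was at 455, 531, 271 and 93, with a ratio of 2.71 in the basal direction, 1.82 without luminal 2 and 5.30 without luminal 3. Reads that fit both genes could be counted for either or dropped, which leaves the values of Aldh1a7 and of Aldh1a1 uncertain to an extent not tested.

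Aldh1a2, the main retinoic acid source of the early embryo, had the opposite order. Aldh1a2 (chr9:71215789-71296243) was at 63 in basal 1, 175 in basal 3, 310 in luminal 3 and 530 in luminal 2, on 10, 27, 16 and 17 reads. Both luminal libraries lay above both basal libraries. The average was 119 ± 79.2 in basal and 420 ± 156 in luminal cells (SD, n = 2), 3.53-fold higher in luminal cells, with a log2 fold change of 1.94, a standard error of 0.70 and a limma adjusted p of 0.233. With any single library left out the ratio was between 2.40 and 6.67. Aldh1a2 is also known from mesenchyme. Within each cell type it was higher in the library with the larger sum of stromal markers (basal 3 and luminal 2). The stromal sum was lower in luminal 3 than in either basal library, while Aldh1a2 was higher there than in both. In basal 1 a large part of that sum was Dcn (45830, against 5770 in luminal 3). Beside basal 1, Col1a1, Col1a2, Col3a1, Lum and Fbln1 were higher in luminal 3, and the other stromal markers were lower. Of the smooth muscle markers, Des alone was higher in both luminal libraries, at 820, 1715, 3207 and 2834. The part of stromal RNA in the difference was not tested.

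Aldh1a3 encodes the third enzyme, which is known from the eye, nose and several glands. Aldh1a3 (chr7:66390890-66427517) was at 44 in basal 1, 182 in basal 3, 194 in luminal 3 and 280 in luminal 2. The groups did not overlap, but basal 3 and luminal 3 were nearly equal. The ratio of averages was 2.10 in the luminal direction (113 ± 97.6 against 237 ± 60.8, SD, n = 2, limma adjusted p = 0.449), and 1.30 without basal 1. It was also under 2 without luminal 2, at 1.72, and with quantile normalization, at 1.93, while without basal 3 it was 5.39.

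Within each library the enzymes can be compared as shares of their own reads, which does not depend on library size. Aldh1a1 held 95.6% of the reads of the trio in basal 1 (95% Wilson confidence interval 93.1 to 97.2) and 82.5% in basal 3 (77.9 to 86.3). It held 26 of 52 reads in luminal 3 (36.9% to 63.1%) and 39.5% in luminal 2 (26.4 to 54.4). Neither luminal interval reached either basal interval, although the intervals cover counting error only. Aldh1a2 held 2.59%, 8.60%, 30.8% and 39.5% in the same order, and Aldh1a3 1.81%, 8.92%, 19.2% and 20.9%. Per kilobase of exon, the scale on which genes can be compared, Aldh1a1 made up 92.6% and 74.5% of the trio in basal 1 and basal 3. Aldh1a2 was the largest of the trio per kilobase in luminal cells, at 48.8% in luminal 3 and 58.2% in luminal 2. It had 16 and 17 reads there, against 26 and 17 for Aldh1a1. This order depends on the exon length used, all annotated exons of a gene joined, 4937 bases for Aldh1a1 and 2264 for Aldh1a2. A shorter length for Aldh1a1 would raise its share, and other lengths were not tested.

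**Figure D3:**
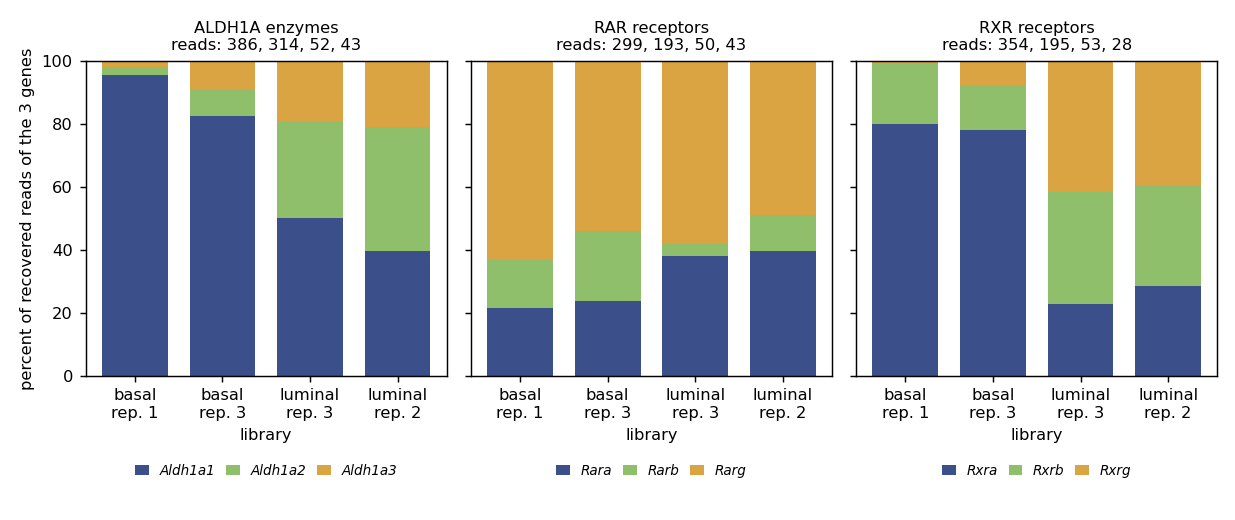
Percent of the recovered reads of 3 related genes that each gene took in each library, for the ALDH1A enzymes, the RAR receptors and the RXR receptors, with the reads of each trio above the panel in the order of the bars. Aldh1a1 takes 95.6% and 82.5% in basal libraries and less in luminal ones, 39.5% in luminal 2, and Rxra 79.9% and 77.9% against 22.6% and 28.6%.

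Crabp2 encodes a small protein that carries retinoic acid from the cytoplasm to the receptors. Crabp2 (chr3:87948666-87953376) was at 6 in basal 1, 32 in basal 3, 19 in luminal 3 and 31 in luminal 2, on 1, 5, 1 and 1 reads. The groups overlapped, and with so few reads no difference was detectable at this depth. The ratio of pooled read rates, luminal over basal, was 1.24 with an exact 95% interval of 0.123 to 6.96, and the log2 fold change of 0.74 turned to -0.38 without basal 1. Fabp5, another carrier of retinoic acid, was measured better, at 251, 221, 194 and 218 (limma adjusted p = 0.846).

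Of the 3 receptors, Rarg had the highest level per kilobase of exon in every library, at 278 and 159 in basal 1 and basal 3, 132 in luminal 3 and 153 in luminal 2. RARγ is the form known from skin and other stratified epithelia. Rarg (chr15:102234938-102257517) had normalized values of 1184, 676, 562 and 654 in the same order. Basal 3 and luminal 2 differed by little, and the average was 1.53-fold higher in basal cells (930 ± 359 against 608 ± 65.1, SD, n = 2, limma adjusted p = 0.472). Without basal 1, the remaining basal library, at 676, stood beside a luminal average of 608.

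Rara, the most widely expressed of the receptors, had the smallest log2 fold change of the 9 genes in the limma fit to all 4 libraries, though Crabp2 was smaller by edgeR and DESeq2 and Rarg after rescaling to nuclear protein-coding genes. Rara (chr11:98927818-98974942) was at 401 in basal 1, 299 in basal 3, 368 in luminal 3 and 530 in luminal 2, so the groups overlapped. Its log2 fold change was 0.35 with a standard error of 0.41 (limma adjusted p = 0.663). The exact interval of the pooled read rate, luminal over basal, ran from 0.815 to 1.80 and covers counting error only.

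Rarb encodes RARβ, a receptor that is itself a classic target of retinoic acid. Rarb (chr14:16430839-16819156) was at 288 in basal 1, 279 in basal 3, 39 in luminal 3 and 156 in luminal 2. The basal libraries were nearly equal and both lay above the luminal libraries, which differed from each other by more than the basal ones. The average was 2.91-fold higher in basal cells (283.5 ± 6.36 against 97.5 ± 82.7, SD, n = 2), with a log2 fold change of -1.84, a standard error of 0.83 and a limma adjusted p of 0.315. Without luminal 3 the log2 fold change was -0.86 and the ratio no longer passed 2-fold, and without luminal 2 it was -2.83. The luminal values rest on 2 and 5 reads.

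The value of Rarb is uncertain for another reason. Its exons share 1793 bases with Top2b on the opposite strand, a topoisomerase gene at 6601, 6535, 3388 and 3272, and 227 bases with the antisense gene Gm48162. Whether strand was used in counting is not given in the sources used here, and Top2b too was higher in both basal libraries. Its part in the Rarb values was not tested.

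As a share of RAR reads, Rarb held 15.4% and 22.3% in basal 1 and basal 3, 2 of 50 reads in luminal 3 and 11.6% in luminal 2. The Wilson interval of luminal 3 (upper bound 13.5) lay below both basal shares but overlapped the interval of basal 1 (11.7 to 19.9). That of luminal 2 (5.07 to 24.5) covered both basal shares. Rara held 21.4% and 23.8% in basal libraries, 19 of 50 reads in luminal 3 and 39.5% in luminal 2.

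The Rarb promoter is shown because retinoic acid receptors are known to bind a pair of direct repeats spaced by 5 bases in it. A search of both strands for repeats of the half-site AGGTCA, its form AGTTCA, the form GGGTCA or the form GGTTCA, spaced by 1, 2 or 5 bases, was made in the 300 bases around each RefSeq start site (GRCm38.p6, 250 before and 50 after). Promoters were listed for 7 of the 9 genes, 15 promoters in all, and for 38 of the 50 other pathway genes. Repeats spaced by 5 bases were present in 0.0974% of 32851 promoters, those spaced by 1 base in 0.222% and those spaced by 2 bases in 0.268%. Among the 9 genes a match was present for Rarb alone, 53 to 37 bases before the start site. Among the other pathway genes a match spaced by 5 bases was present for Cyp26a1, which encodes another retinoic acid degrading enzyme, and a match spaced by 1 base for Bco1, which was at 0 in every library. The Rarb window lies at chr14:16575493-16575549 on the minus strand and the Cyp26a1 window at chr19:37697756-37697807 on the plus strand, each written along the gene, with the half-sites in capitals. In Cyp26a1 the repeat is read from the opposite strand.
Rarb: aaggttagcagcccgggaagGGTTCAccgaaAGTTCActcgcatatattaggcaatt
Cyp26a1: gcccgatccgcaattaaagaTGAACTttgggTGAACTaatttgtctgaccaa
A match is a description of the letters only. Cyp26a1 had a single read over the 4 libraries, in luminal 3, and did not pass the filter, so it cannot be compared with Rarb.

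Cyp26b1 encodes an enzyme that breaks retinoic acid down and shields tissues from it. Cyp26b1 (chr6:84571414-84593908) was at 75 in basal 1 and 78 in basal 3, 0 in luminal 3 and 62 in luminal 2, on 12, 12, 0 and 2 reads. Both basal libraries were above both luminal ones, but luminal 2 was close to them. The ratio of averages was 2.47-fold in the basal direction, and 76.5 in basal cells stood beside 62 in luminal cells without luminal 3. Pooled read rates differed by a ratio of 3.21 with an exact 95% interval of 0.798 to 28.1, so a difference was not detectable at this depth. At 0 reads, luminal 3 allows a value of up to 58.1, that of 3 reads.

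Per kilobase of exon and averaged over the 4 libraries, the levels ran from Aldh1a1 (254.5) through Rarg (180), Aldh1a2 (119), Rara (91.5), Stra6 (78.6), Aldh1a3 (37.9), Rarb (36.2) and Crabp2 (16.6) to Cyp26b1 (10.0). The order differed by cell type, and it depends on the exon length used for each gene. In both basal libraries Aldh1a1 came first and Rarg followed, and their basal averages per kilobase exceeded those of 87.5% and 76.5% of the genes kept. In luminal 3 Stra6 (163), Aldh1a2 (137) and Rarg (132) came ahead of Aldh1a1 (102). In luminal 2 Aldh1a2 (234) came first, then Rarg (153), Rara (121) and Aldh1a1 (107). The luminal average of Aldh1a2 exceeded that of 74.3% of the genes kept, against 40.7% for its basal average. The neighbours Rara and Stra6, and likewise Crabp2 and Cyp26b1, changed order between libraries of the same cell type, so their order was within the spread. Rarb was above Aldh1a3 per kilobase in both basal libraries (54.7 against 9.53, and 53.0 against 39.4) and below it in both luminal libraries.

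The profile most like that of Aldh1a1 over the 4 libraries was sought, among the 12544 genes that averaged at least 100, by the Euclidean distance between centred log2 values. Reep5, a protein of the endoplasmic reticulum membrane, was nearest (distance 0.16) at 2198, 1462, 465 and 436. Col8a1, a collagen chain, followed (distance 0.18) at 369, 253, 77 and 93. The third was the antisense gene Gm15419 (distance 0.18), whose reads cannot be assigned with confidence where strand use is not known.

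The wider pathway was examined from a list ordered by role. Of 50 other retinoid genes, 8 were at 0 in all libraries and 33 passed the filter. Of these 33, 9 were past 2-fold in the basal direction and 6 in the luminal direction, beside 16.3% and 18.3% of all genes tested. Of the 9, 4 (Adh7, Aldh8a1, Dhrs9 and Rarres1, named after their values were seen) were at 0 in both luminal libraries and passed the filter only through their basal libraries, which fixed their direction, and 5 were past 2-fold when both groups had to pass. limma gave an adjusted p under 0.05 for 0 of the 33, and an unadjusted p under 0.05 for 13, among them these 4 and Stra6l, which also passed the filter only through the group where it was high, so nothing is read from the 13 beside the 18.5% of all genes. edgeR called 2 (Tgm2 and Rxra), both in the basal direction, beside 5.17% of all genes in either direction. The count of luminal genes and that of edgeR calls were near these shares. The median log2 fold change was -0.39, and -0.13 with these 4 genes set to 3 reads in the luminal libraries, beside -0.10 over all genes tested.

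Among genes that retinoic acid is known to induce, Tgm2, a transglutaminase that crosslinks proteins, had the largest values. Tgm2 was at 10841 in basal 1, 5099 in basal 3, 581 in luminal 3 and 1247 in luminal 2, with both basal libraries well above both luminal ones. The average was 8.72-fold higher in basal cells, with a log2 fold change of -3.13, a standard error of 0.51 and adjusted p values of 0.0659 by limma and 0.00112 by edgeR. Its ratio was 5.58 without basal 1 and 13.7 without luminal 2. Of the 14 induced genes listed, which include 4 of the 9 described above, 9 passed the filter, 4 were past 2-fold in the basal direction (Tgm2, Rarb, Cyp26b1 and Rarres1) and 2 in the luminal direction, beside 16.3% and 18.3% of all genes tested. Cyp26b1 and Rarres1 passed the filter only through their basal libraries, so nothing is read from this count. Dhrs3, a reductase that returns retinaldehyde to retinol, was at 2179, 1351, 1355 and 1558 (limma adjusted p = 0.699), and its groups overlapped.

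RXR proteins are the partners of the RAR receptors, and their makeup too differed between basal and luminal libraries. Rxra was at 1772 in basal 1, 987 in basal 3, 232 in luminal 3 and 249 in luminal 2, 5.74-fold higher in basal cells (log2 fold change -2.46, standard error 0.40, adjusted p = 0.0659 by limma and 0.00525 by edgeR). Rxrg, the form best known from muscle and nervous tissue, was at 13, 97, 426 and 343, 6.99-fold higher in luminal cells (adjusted p = 0.184 by limma, 0.0768 by edgeR and 0.0478 by DESeq2), with a ratio of 3.96 without basal 1 and 29.6 without basal 3. Rxrb was at 432, 182, 368 and 280, and the groups overlapped. Rxra held 79.9% (Wilson 95% interval 75.5 to 83.8) and 77.9% (71.6 to 83.2) of RXR reads in basal 1 and basal 3, 22.6% (13.5 to 35.5) in luminal 3 and 28.6% (15.3 to 47.1) in luminal 2. All 6 receptor cofactors on the list passed the filter. Of these, 0 were past 2-fold, beside 16.3% of all genes in the basal and 18.3% in the luminal direction, and 4 were higher in both basal libraries, beside 27.3%. limma gave 1 of the 6, Nrip1, an unadjusted p under 0.05 (adjusted p = 0.186), beside 18.5% of all genes.

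Other genes that handle retinol, retinaldehyde or retinoic acid, most of them named here for a 2-fold difference, differed on both sides. None of those given here was past the threshold of limma or edgeR. Stra6l, a retinol transporter related to Stra6, was at 44 and 6 in basal 1 and basal 3, 174 in luminal 3 and 187 in luminal 2, 7.22-fold higher in luminal cells (limma adjusted p = 0.219), with a ratio of 30.1 without basal 1 and 4.10 without basal 3. It passed the filter only through its luminal libraries, and its basal values rest on 7 and 1 reads. Dhrs4, a retinal reductase, was at 81, 52, 329 and 249 in the same order, 4.35-fold higher in luminal cells (limma adjusted p = 0.164). Toward basal cells, Rdh13, a mitochondrial member of the retinol dehydrogenase family, was at 420, 578, 136 and 249, with a ratio of 2.59 (limma adjusted p = 0.225). Cyp2s1, a cytochrome P450 that can act on retinoic acid, was at 545, 903, 232 and 93, with a ratio of 4.46 (adjusted p = 0.124 by limma and 0.0547 by edgeR), or 7.78 without luminal 3. Rdh10, which carries out the first oxidation of retinol in the embryo, was at 620, 805, 484 and 1122 (limma adjusted p = 0.958), and its groups overlapped.

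**Figure D4:**
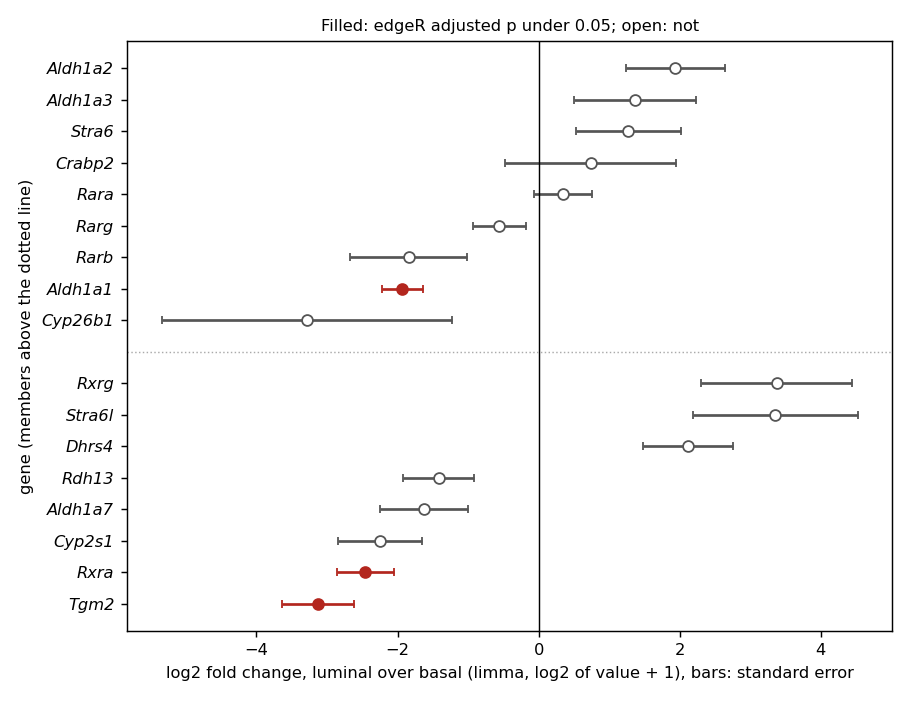
log2 fold change, luminal over basal, by limma on log2(value + 1), with standard errors as bars, for the 9 genes (top) and 8 other pathway genes (bottom). Aldh1a1, Tgm2 and Rxra are filled because their edgeR adjusted p was under 0.05, and Aldh1a7 was not tested by edgeR.

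How far each ratio rests on a single library was read from the ratios without each in turn. Aldh1a1 and Aldh1a2 were the 2 of the 9 genes past 2-fold in the same direction whichever library was left out. The count in the basal direction was 1 without luminal 3, where Rarb and Cyp26b1 were no longer past 2-fold. The count in the luminal direction was 1 without basal 1, where Stra6 and Aldh1a3 were no longer past it.

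**Figure D5:**
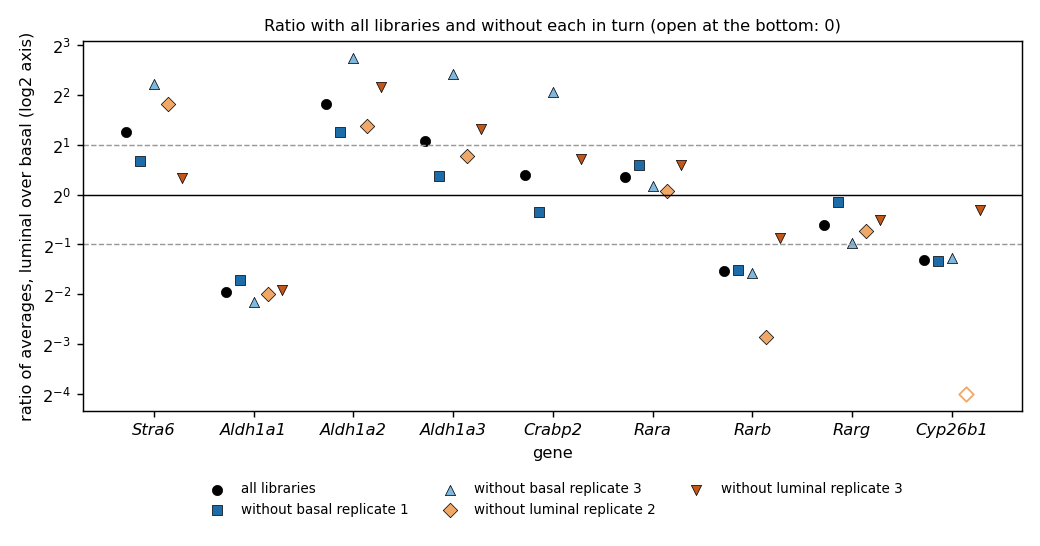
Ratio of group averages, luminal over basal (log2 axis), for the 9 genes with all 4 libraries and without each library in turn, with dashed lines at 2 and 0.5. Aldh1a1 stays below 0.5 and Aldh1a2 above 2 in every case, the open point for Cyp26b1 is a ratio of 0, and Crabp2 did not pass the filter without luminal 2.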

How the data were processed

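RNA-seq was performed on cells sorted from prostate tips, with NuGen Ovation Solo libraries. The authors mapped reads to GRCm38 (mm10) with STAR, counted genes with HTSeq, scaled the counts of each library to the same number of aligned reads and deposited this signal, a normalized count per gene and library, as whole numbers. Picard is named in the submitters' processing notes without a role. Counting mode and use of strand are not given in the sources used here. Columns left without a sample numbered 0.

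The value of 1 read was found from the spacing of low values up to 60 reads, of which 98.0% to 99.1% lay within 0.15 reads of a whole number. Dividing by it gave 3194308 and 3079425 reads for basal 1 and basal 3, and 1036685 and 643267 for luminal 3 and luminal 2. In luminal 2 some low values follow another spacing, and the 542 genes with such values in any library were left out of the count tests. Intervals have a level of 95% and cover counting error only.

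The comparison was luminal against basal, as labelled. The main test was limma 3.58.1 on log2 of the value plus 1 with a trended prior. edgeR 4.0.16 and DESeq2 1.42.0 on recovered reads were alternatives, beside other filters, scalings, a pseudocount of 10, a fold of 4 and leaving out each library. Other software was blastn 2.17.0+, matplotlib 3.10.9, scipy 1.17.1, R 4.3.3, pandas 2.3.3 and numpy 2.4.6. Symbols and coordinates came from GENCODE for GRCm38, which held 49412 of the 49671 gene identifiers.

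The 9 genes, the pathway lists and the marker lists were chosen with earlier results of these data known. Named genes were the 9, other pathway genes with an average of 100 or more, a 2-fold ratio and groups that did not overlap, markers a result needed, and the 3 genes nearest in profile to Aldh1a1. Other genes named to complete a group were chosen after their values were seen. A gene of the pathway list is not reported here and was left out of the list's counts.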

Additional observations from a re-analysis of the deposited data

How the results depend on the processing

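Over all genes, limma called 130 (82 toward basal, 48 toward luminal), and the count moved with the processing: 0 with no filter on low values, 678 with both groups required to pass, 532 at an average of 100 or more, 531 with a pseudocount of 10, 875 with quantile normalization, 544 without the trended prior, 956 with edgeR, 957 with edgeR and DESeq2's size factors and 813 with DESeq2. Leaving out 1 library gave 312 to 991 calls, of which 587 of 593 were toward basal without basal 1, 751 of 831 without basal 3, 161 of 991 without luminal 3 and 14 of 312 without luminal 2, with the lone library of a group assumed to vary like the other group. Rescaling to nuclear protein-coding genes moved the median over all genes (log2, luminal over basal) from -0.10 to 0.21 and the split of calls to 62 toward basal and 63 toward luminal. The 9 genes kept their directions under it.

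For the 9 genes, 128 alternative fits gave an adjusted p, of which 120 kept the direction and the side of the threshold and 7 brought Aldh1a1 under an adjusted p of 0.05, whose values over its alternatives ran from 0.00632 to 0.228. The exception in direction was Crabp2, whose log2 fold change ran from -0.38 without basal 1 to 1.85 without basal 3. Past a fold of 4 there were 0 of the 9 in either direction. Leaving out 1 library gave 1 to 3 genes past 2-fold toward basal and 1 to 4 toward luminal. Other pathway genes past 2-fold toward basal numbered 5 with both groups required to pass and 5 at an average of 100 or more. Toward luminal they numbered 11 with no filter, 3 at an average of 100 or more and 3 at a fold of 4. No paired analysis was possible because the groups share 1 replicate number. A single read is worth 19.4 in luminal 3 and 31.2 in luminal 2, which limits Crabp2, Rarb and Cyp26b1.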
